A study of Mus musculus with 3 samples.

Results

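Lilrb4a and Lilr4b are a pair of neighbouring mouse genes for receptors of the gp49 family, related to human LILRB4. They are 2 of the 18287 genes listed in the deposited tables, of which 13285 are protein-coding. The pair was selected on its deposited log2 differences, by gene symbol, so its difference from control is given here as a description and supports nothing further. RNA was taken from cultured endothelium of the mouse aorta, bought with its complete medium from Cell Biologics, and each group is 1 library. The first group is labelled as control. The second group was given glucose oxidase, an enzyme that turns glucose and oxygen into hydrogen peroxide, at 5 mU/mL for 30 min. The third group was given glucose oxidase at the same dose and time together with 0.2 mM ethyl-2-hydroxybenzylamine (Et2HOBA) for 24 h. Et2HOBA scavenges isolevuglandins, reactive lipid products of oxidation. When Et2HOBA was added relative to the enzyme is not stated in the labels, and no library with Et2HOBA alone was analysed here.

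Both receptors sit in the plasma membrane of mast cells, macrophages and other myeloid cells, where they were first described. Lilrb4a (gp49B, also ILT3 or CD85K) carries immunoreceptor tyrosine-based inhibitory motifs (ITIMs) in its cytoplasmic tail. When a Src-family kinase phosphorylates an ITIM, phosphatases such as SHP-1, SHP-2 and SHIP dock there and dampen activating signals. Lilr4b (gp49A) has nearly the same extracellular part and a short tail without these motifs.

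Lilrb4a (ENSMUSG00000112148.1) lies on the plus strand of chromosome 10 from 51490956 to 51496611 in GRCm38, and Lilr4b (ENSMUSG00000112023.1) lies just before it on the same strand, from 51480632 to 51486703. The genes are 4252 bases apart. In GENCODE release M21 the longest coding transcript of each has 9 exons, with 335 codons for Lilrb4a and 303 for Lilr4b. Over 907 aligned coding bases the pair was 96.0% identical. Exons 2 to 7 have equal lengths in both genes, while exon 8 has 66 bases in Lilrb4a and 68 in Lilr4b, a difference that does not keep the reading frame. The ends of the coding sequences are shown because they set the inhibitory receptor apart from its paralog. The Lilrb4a stretch covers the last 48 codons, spliced between chr10:51494843-51496241, and the Lilr4b stretch is the aligned end of its coding sequence, 16 codons spliced between chr10:51484567-51485757. Capitals mark in-frame matches to the ITIM consensus.
Lilrb4a: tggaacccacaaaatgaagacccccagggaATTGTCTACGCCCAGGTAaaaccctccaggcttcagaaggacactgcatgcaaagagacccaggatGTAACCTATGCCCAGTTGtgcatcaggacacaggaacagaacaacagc
Lilr4b: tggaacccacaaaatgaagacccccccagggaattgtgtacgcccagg
The Lilrb4a stretch held 2 ITIM matches, starting at codons 298 and 320, and the last 60 codons of Lilr4b held 0. Outside these stretches each gene had 1 further match at codon 8, within the first 30 codons, where the signal peptide lies.

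Reads of the pair are hard to assign, which bears on every value that follows. Another annotated gene, Gm49339 (ENSMUSG00000062593.17, chromosome 10, 51480612 to 51496613), runs over both on the same strand. Its longest coding transcript begins in exon 1 of Lilr4b and goes on with exons 2 to 9 of Lilrb4a. Of the 1381 bases of the Lilrb4a transcript, 1326 (96.0%) lie in exons of Gm49339, and 55 bases do not. For Lilr4b the overlap is 122 of 1836 bases (6.64%). Over the exons of all annotated transcripts of each gene, 35.3% of Lilrb4a and 2.24% of Lilr4b are shared with Gm49339. An antisense gene, Gm40645, covers 103 bases (7.46%) of the Lilrb4a transcript and is not listed in the count table. How reads in shared exons were assigned is not given in the sources used here. Most Lilrb4a reads were not counted for Gm49339 as well. The totals of Gm49339 were 2, 2 and 14, beside 51, 462 and 746 for Lilrb4a, control first and both agents last. Whether reads in shared exons were dropped or went to Lilrb4a alone was not tested.

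**Figure D1:**
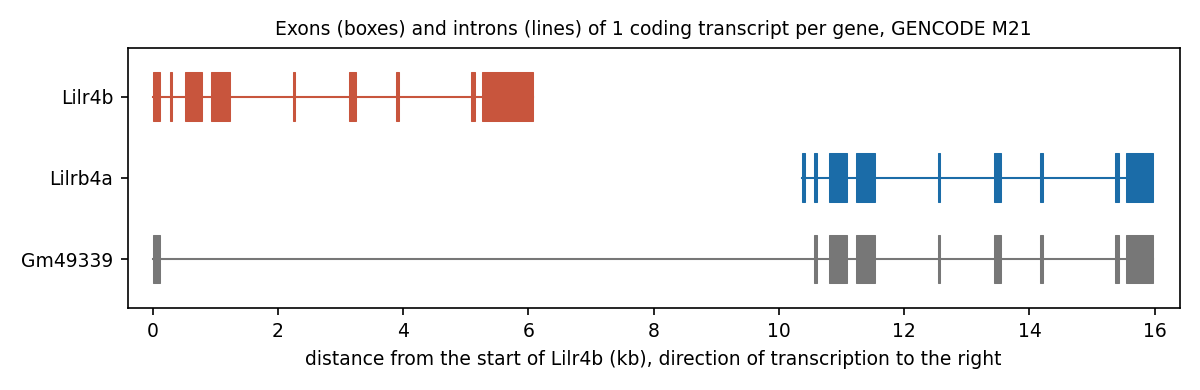
Exons (boxes) and introns (lines) of 1 coding transcript each of Lilr4b, Lilrb4a and Gm49339, plotted by distance in kb from the start of Lilr4b, with transcription to the right. Gm49339 begins in exon 1 of Lilr4b and goes on with exons 2 to 9 of Lilrb4a.

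The paralogs also resemble each other over stretches as long as short reads; the read length is not given in the sources used here. Of the 50-base stretches of the Lilr4b transcript, 22.9% occur in a Lilrb4a transcript, and 27.8% of those of Lilrb4a occur in a Lilr4b transcript. At 150 bases these shares are 5.45% and 7.47%. Set against Gm49339, 100% of the stretches of the Lilrb4a transcript occur in one of its transcripts at either length, so no such stretch marks Lilrb4a by sequence alone. For Lilr4b the shares found in Gm49339 are 24.3% at 50 bases and 5.45% at 150. Counts of each gene are therefore uncertain to the extent that such reads were split or dropped, and the sum of both genes is given below as well.

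The libraries held 35005089 to 40212212 reads over the listed genes, and 131 to 464 genes had a count of 0. Reads of the glucose oxidase library were worked back from the authors' log2 differences and the control counts, which gave whole numbers for 100% of the genes matched by symbol. Genes in the tables reach 5 reads or more in some library. With 1 library per group there is no replicate check and no test between conditions. The 95% intervals are exact (Poisson for a count, Clopper-Pearson for a fold or a share) and cover counting error only. They compare libraries, not conditions.

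The control held 51 reads of Lilrb4a, against 462 after glucose oxidase and 746 after glucose oxidase plus Et2HOBA. Both treated libraries were high and the control was low, with counting intervals of 38.0 to 67.1, 421 to 506, and 693 to 802 reads before scaling. After division by size factors the level was 9.68-fold that of control with glucose oxidase (95% interval 7.24 to 13.2) and 14.5-fold with both agents (10.9 to 19.7). For Lilr4b the reads numbered 43 in control, 885 after glucose oxidase and 1412 with both agents. The order of the libraries was the same, with intervals of 31.1 to 57.9, 828 to 945, and 1339 to 1488 reads before scaling. Its normalized level was 22.0-fold that of control with glucose oxidase (16.2 to 30.6) and 32.6-fold with both agents (24.1 to 45.3). Summed over both genes, to set aside any splitting of reads between them, the folds were 15.3 and 22.8. In bulk RNA, more cells carrying a transcript and more transcript per cell cannot be told apart.

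**Figure D2:**
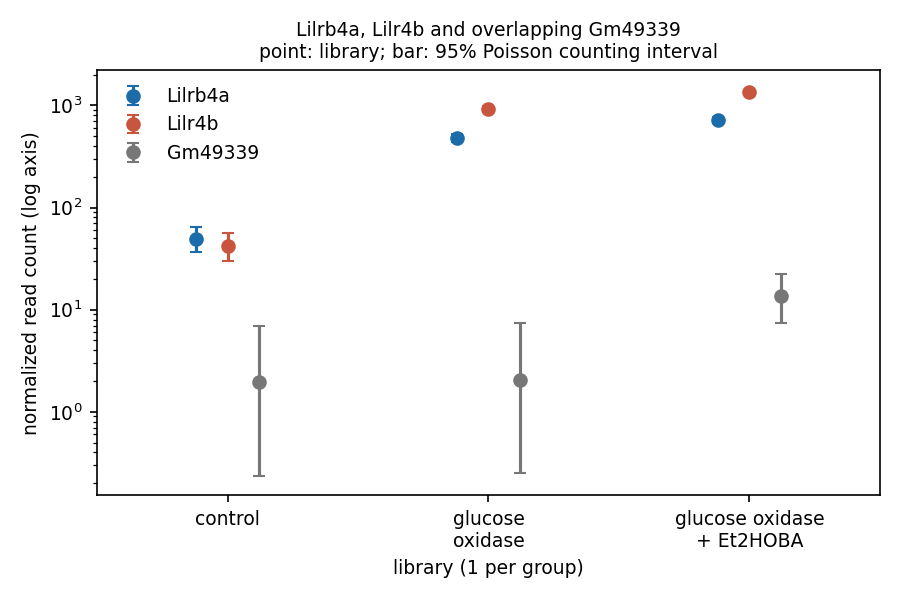
Normalized read count (log axis) of Lilrb4a, Lilr4b and the overlapping gene Gm49339 in the 3 libraries, 1 point per library with its 95% Poisson counting interval. Lilrb4a goes from 49.4 in control to 479 and 718, Lilr4b from 41.7 to 917 and 1360, and Gm49339 stays between 1.94 and 13.5.

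Set among all genes, both paralogs were near the top of each comparison with control. On the scale of log2 normalized count plus 10, which is used below for all genes and understates the difference of low genes, the ratio of Lilr4b was 4.16 with glucose oxidase and 4.73 with both agents. These ranked 10th and 9th highest of 18287 genes. For Lilrb4a the log2 ratios were 3.04 and 3.62, at ranks 37 and 45. Both genes were past 1 log2 unit upward in both comparisons. Of all listed genes 4.07% were that much higher with glucose oxidase and 6.66% with both agents, while 8.60% and 8.04% were that much lower. Nothing is read from this, since the pair was chosen for it. In the authors' deposited tables, on a scale that shrinks low counts more, Lilr4b had log2 differences of 2.55 and 3.86 and Lilrb4a of 1.73 and 2.87.

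**Figure D3:**
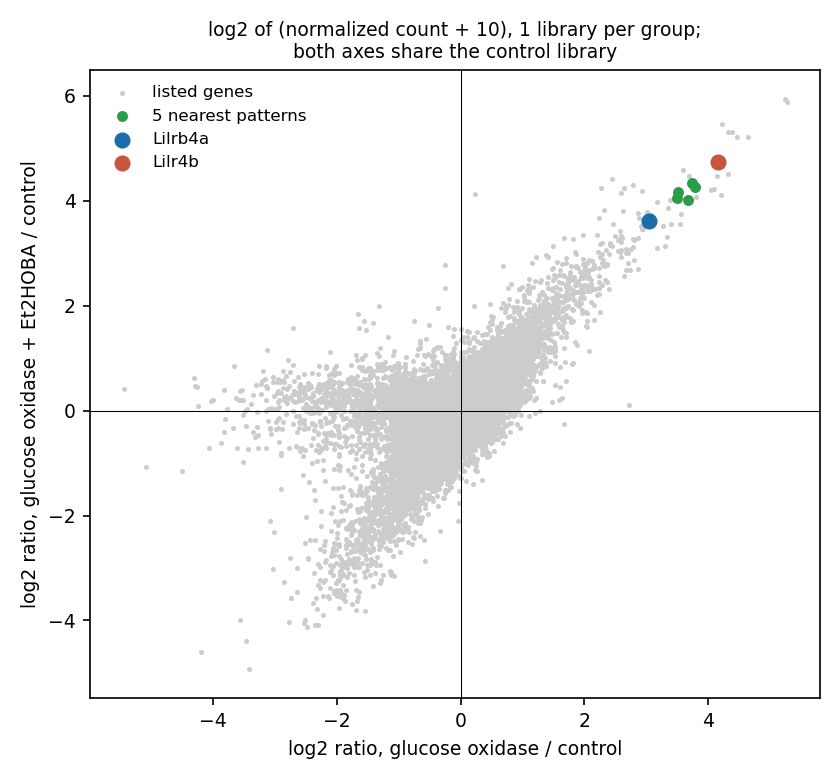
Log2 ratio of glucose oxidase to control (x axis) against that of glucose oxidase plus Et2HOBA to control (y axis), in log2 of normalized count plus 10, for the 18287 listed genes (grey), Lilrb4a (3.04 and 3.62), Lilr4b (4.16 and 4.73) and the 5 genes with the most similar pair of ratios. Both axes use the same control library, so part of the diagonal spread is shared.

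Et2HOBA did not bring either gene nearer to control in these libraries. Against glucose oxidase alone, the library with both agents held 1.50-fold more Lilrb4a (95% interval 1.33 to 1.69) and 1.48-fold more Lilr4b (1.36 to 1.61). The log2 ratios of 0.58 and 0.56 compare with a median of 0.00 over all genes, and neither paralog passed 1 log2 unit. In that comparison 6.39% of listed genes were higher and 2.15% lower by 1 log2 unit or more. Of those 1563 genes, 441 were protein-coding. A ratio at or above that of Lilrb4a was held by 11.7% of all listed genes and 4.21% of the protein-coding ones. For Lilr4b these shares were 12.1% and 4.49%. For both agents against glucose oxidase the authors' deposited table lists 7 genes, and the pair is not among them. On its scale, recomputed here, the log2 differences were 0.26 for Lilrb4a and 0.32 for Lilr4b.

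The paralogs differed in how far they stood above control. The fold of Lilr4b was 2.27 times that of Lilrb4a with glucose oxidase (exact conditional 95% interval 1.46 to 3.55) and 2.24 times with both agents (1.45 to 3.48). Between the treated libraries this ratio was 0.988 (0.854 to 1.14), an interval that includes equal folds. Lilrb4a accordingly made up 54.3% of the 94 reads of the pair in control (43.7 to 64.6), 34.3% of 1347 reads after glucose oxidase (31.8 to 36.9) and 34.6% of 2158 reads with both agents (32.6 to 36.6). The control share thus lies above both treated shares by more than counting error, and the treated shares overlap. The control library gives only 94 reads to this comparison, and both folds share it.

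**Figure D4:**
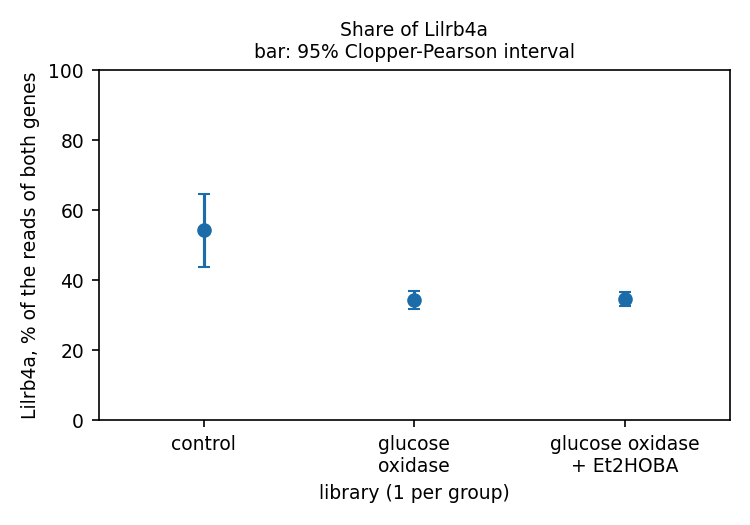
Lilrb4a as a percentage of the reads of Lilrb4a and Lilr4b together in each library, with 95% Clopper-Pearson intervals. The share is 54.3% in control and 34.3% and 34.6% in the treated libraries.

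Levels of the 2 genes were compared per length. Per base of annotated exon, the level of Lilr4b was 0.810 that of Lilrb4a in control, 1.84 times after glucose oxidase and 1.82 times with both agents. Per base of the longest coding transcript the ratios were 0.634, 1.44 and 1.42. Lilr4b was the higher in both treated libraries by both lengths, each counted in full. These lengths include bases shared with Gm49339: 35.3% of Lilrb4a and 2.24% of Lilr4b by exon, 96.0% and 6.64% by transcript. Outside exons of Gm49339 the transcripts hold 55 bases of Lilrb4a and 1714 of Lilr4b. If reads in shared exons were dropped, the lengths are too long, most of all for Lilrb4a. Neither the order nor the levels per kb below need then hold, and this was not tested. In control the 95% interval of the ratio was 0.527 to 1.24 per base of exon, which includes equal levels, and 0.413 to 0.971 per base of transcript, which does not. With exon lengths counted in full, 53.8% of 12950 protein-coding genes lay below Lilr4b per kb and 41.1% below Lilrb4a in the library with both agents. In control these shares were 12.0% and 13.4%.

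The overlapping gene Gm49339 had 2, 2 and 14 reads, in the order control, glucose oxidase, both agents; triplets of reads below keep that order. Only the last exceeded 3 reads, and with so few reads the fold against control had a 95% interval of 1.60 to 63.1. Adding its reads to those of the pair gave folds of 15.0 and 22.5 against control. Genes farther along chromosome 10 had lower ratios, from which nothing is read, since the pair was chosen for its own. The 3 nearest listed genes on each side lay between 629 and 5768 kb away, and their log2 ratios ran from -1.67 to 0.24 with glucose oxidase and from -0.58 to 0.78 with both agents. The closest, Ascc3, a helicase subunit, had 2489, 2477 and 3600 reads. The lowest value belongs to the processed pseudogene Gm6627, with 101, 23 and 80 reads.

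The promoter of Lilr4b is shown because the pair stood so far above control. It is the 250 bases before the RefSeq start, chr10:51480362-51480611 on the plus strand of GRCm38.p6, and capitals mark the motif match. The stretch also lies directly before the GENCODE start of the overlapping Gm49339 (51480612), while Lilr4b in GENCODE starts at 51480632. It is therefore upstream of both genes.
Lilr4b promoter: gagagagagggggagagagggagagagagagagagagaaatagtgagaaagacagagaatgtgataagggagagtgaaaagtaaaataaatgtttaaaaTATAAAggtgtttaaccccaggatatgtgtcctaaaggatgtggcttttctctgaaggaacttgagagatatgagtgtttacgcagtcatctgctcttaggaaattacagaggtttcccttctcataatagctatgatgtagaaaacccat
On both strands 9 motifs were searched. Motifs of stress-responsive factors were the AP-1 site TGANTCA, the cAMP response element TGACGTCA, the core of that element written TGACG and contained in it, the composite C/EBP-ATF site TGATGNAA, and the antioxidant response element TGACNNNGC. Motifs of blood cell factors were searched in a single form each: AGGAAG for ETS factors, GAGGAA for PU.1, which can overlap it, and AGATAA for GATA factors. Other forms, such as GGAA and TGATAA, occur in the stretch shown and were not searched. The TATA box was searched as TATAAA. For the forms searched there was 1 match, the letters TATAAA at position -151 from the start, which 12.4% of 32851 RefSeq promoters of the same length also hold. Whether this match serves as a TATA box was not tested. The shares of those promoters with the other motifs ran from 1.55% for TGACGTCA to 29.5% for AGGAAG. RefSeq sequences were matched for 1 of the 2 genes.

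Genes with the most similar pair of ratios against control were sought among 11339 genes with a mean normalized count of 100 or more. The measure was the Euclidean distance, over the 2 log2 ratios of the 3 libraries, to the mean of the paralogs (3.60 and 4.17). The nearest were Mthfd2, a mitochondrial folate enzyme, at a distance of 0.0930, Pycr1, an enzyme of proline synthesis, at 0.162, and Bcat1, a cytosolic branched-chain aminotransferase, at 0.168. Gsta1, a glutathione transferase, followed at 0.206 and Il12b, the p40 subunit of interleukin-12, at 0.207. The paralogs themselves lay 0.791 from their own mean. Mthfd2 had 571, 6187 and 10427 reads. Gsta1 had 8, 228 and 340 reads and Il12b 8, 219 and 360, so the control levels of both rest on few reads.

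Of the molecules reported to bind LILRB4 proteins, 5 were examined: the integrin chains Itgav and Itgb3, fibronectin (Fn1), apolipoprotein E (Apoe) and Alcam, the adhesion molecule CD166. Alcam was past 1 log2 unit upward in both comparisons with control, 1 of the 5 in each, beside 4.07% and 6.66% of all genes, and 0 were that much lower, beside 8.60% and 8.04%. It had 336, 1065 and 1989 reads, which in the treated libraries was 3.39-fold (95% interval 2.99 to 3.84) and 5.88-fold (5.24 to 6.62) the control level. The abundant Itgb3 (35742, 27821 and 36862 reads) and Fn1 (48488, 38589 and 49411 reads) had log2 ratios between -0.27 and 0.04. Itgav had 2949, 3471 and 5214 reads and Apoe 244, 363 and 329. The median log2 ratio of the 5 was 0.33 with glucose oxidase and 0.41 with both agents, beside -0.01 and 0.00 over all genes.

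The phosphatases that dock on ITIMs split by family member. Ptpn6, which encodes SHP-1, the form typical of blood cells, had 97, 49 and 16 reads, in the opposite order to the receptors. With both agents it was at 0.164 of the control level (95% interval 0.0901 to 0.280). The broadly expressed SHP-2 gene Ptpn11 had 8949, 8837 and 9697 reads, the SHIP-1 gene Inpp5d 6550, 6324 and 8567, and the SHIP-2 gene Inppl1 6556, 7803 and 10538. Of the 4 genes, 1 was lower by 1 log2 unit or more with both agents, 0 with glucose oxidase alone, and 0 were that much higher. Over all genes 8.04% and 8.60% were lower in these comparisons. The median log2 ratios of the 4 were 0.06 with glucose oxidase and 0.24 with both agents, beside -0.01 and 0.00 over all genes.

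Of 17 kinases and adaptors that act at such receptors, 14 were listed. With glucose oxidase 1 was past 1 log2 unit upward and 0 downward; with both agents 1 was upward and 1 downward, and the medians were -0.10 and 0.02. With so few genes these counts lie near the shares over all genes, 4.07% and 6.66% upward and 8.60% and 8.04% downward. Those past the limit in either comparison were Src, a kinase that can phosphorylate ITIMs, Lck, its relative best known from T cells, and Plcg2, a phospholipase C. Src had 4368, 6191 and 9092 reads, a log2 ratio of 1.05 with both. Lck had 128, 260 and 255 reads, a log2 ratio of 1.06 with glucose oxidase. Plcg2 had 3373, 1634 and 1369 reads, at 0.403 of the control level with both agents (95% interval 0.378 to 0.430).

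From a list of 11 further genes of the leukocyte and paired immunoglobulin-like receptor families, Lair1 was listed, with 22, 6 and 10 reads. Of 36 other inhibitory receptors, not all of which carry a classical ITIM, 14 were listed. With glucose oxidase 2 were higher and 0 lower by 1 log2 unit or more, and with both agents 2 were higher and 3 lower. Over all genes 4.07% were higher and 8.60% lower with glucose oxidase, and 6.66% and 8.04% with both agents. The medians of the 14 were -0.24 and -0.39, beside -0.01 and 0.00. Havcr2, which encodes the checkpoint receptor TIM-3, had 502, 1320 and 2272 reads, and was 4.50-fold the control level with both agents (95% interval 4.08 to 4.96). Ceacam1, an ITIM-bearing adhesion receptor, had 7480, 13431 and 20358 reads, 2.70-fold with both (2.63 to 2.78). Ceacam2 had 47, 112 and 56 reads and so was past the limit with glucose oxidase alone. On the lower side were Vsir, the gene of the checkpoint molecule VISTA, with 2742, 1290 and 778 reads, the lectin Clec1a with 2423, 1568 and 941, and Btla with 46, 20 and 1. None of the 14 had a ratio as high as that of either paralog. Nothing is read from that, since the pair was chosen on its difference from control.

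**Figure D5:**
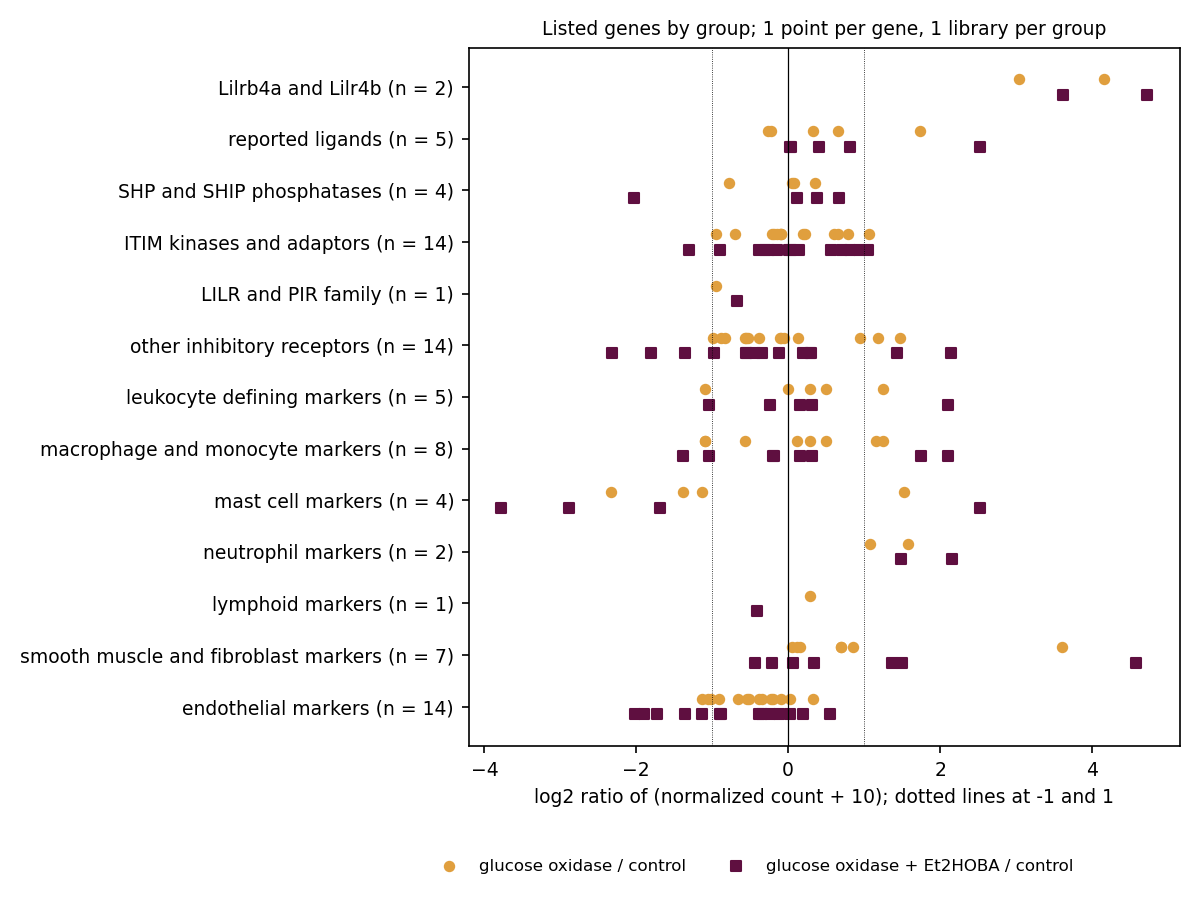
Log2 ratio against control (log2 of normalized count plus 10) of each listed gene, for glucose oxidase (circles) and glucose oxidase plus Et2HOBA (squares), with dotted lines at -1 and 1. Lilrb4a and Lilr4b lie at 3.04 to 4.73, Pdgfra of the smooth muscle and fibroblast markers lies between them at 3.60 and 4.58, and every other gene plotted lies at 2.52 or below.

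Because both receptors are best known from myeloid and mast cells, markers of those cells were examined in the same libraries. All 14 endothelial markers were listed, and Cdh5, the VE-cadherin gene, had 55360, 45034 and 63665 reads. Their normalized counts summed to 404363, 270165 and 247297, the opposite order to the paralogs, and 3 and 5 of the 14 were lower than control by 1 log2 unit or more, beside 8.60% and 8.04% of all genes. Those were Kdr, Tek and Vwf with either treatment, and also Erg and Cldn5 with both agents. Of 19 macrophage and monocyte markers 8 were listed, and Ptprc, Itgam, Adgre1, Spi1, Tyrobp and Laptm5 were not among the listed genes. Csf1r had 6, 12 and 10 reads, Fcer1g 6, 9 and 8, Fcgr3 7, 8 and 5, and Coro1a, a leukocyte marker, 16, 15 and 12. The normalized counts of the 8 summed to 8248, 17938 and 27141, nearly all of it from Cd68, a lysosomal protein gene not restricted to macrophages, with 8215, 17067 and 27799 reads. Of the 8, 2 were higher (Cd14 and Cd68) and 2 lower (Lyz2 and Mpeg1) by 1 log2 unit or more in each comparison with control. Over all genes 4.07% and 6.66% were higher and 8.60% and 8.04% lower. Mpeg1 had 32, 9 and 6 reads. Cd14 had 55, 136 and 272 reads, the same order of libraries as the paralogs, and Lyz2 had 186, 76 and 86.

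Of 10 mast cell markers 4 were listed, and their normalized counts summed to 1215, 364 and 212. Hdc, the histidine decarboxylase gene, had 720, 126 and 43 reads, Kit, the stem cell factor receptor gene, 409, 168 and 120, and Cpa3, a mast cell protease gene, 125, 39 and 8. Tpsab1, a tryptase gene, went the other way with 0, 18 and 49 reads. Of the 4, 1 was thus higher and 3 lower past 1 log2 unit in both comparisons, where 4.07% and 6.66% of all genes were higher and 8.60% and 8.04% lower. Among 6 neutrophil markers, S100a8 (565, 1128 and 1603 reads) and S100a9 (10, 47 and 81 reads) were listed, while Csf3r, Ly6g, Mpo and Elane were not. Both listed genes were higher than control past 1 log2 unit in each treated library, beside 4.07% and 6.66% of all genes. Among 9 lymphoid markers, Cd79a alone was listed, with 6, 9 and 2 reads. Of 11 smooth muscle and fibroblast markers 7 were listed, with normalized counts summing to 194, 1522 and 2902, most of it Pdgfra, a growth factor receptor gene, with 107, 1325 and 2821 reads. Its log2 ratios of 3.60 and 4.58 were above those of Lilrb4a and below those of Lilr4b. Of the 7, 1 was higher past 1 log2 unit with glucose oxidase and 3 with both agents, beside 4.07% and 6.66% of all genes. In either comparison 0 were that much lower, beside 8.60% and 8.04%. Under 100 reads in every library were 6 of the 7. Besides Pdgfra, those higher with both agents were Myh11, a smooth muscle myosin gene, and Pdgfrb, a growth factor receptor gene of pericytes. Myh11 had 19, 35 and 73 reads and Pdgfrb 21, 43 and 71. The part of any of these cells in the difference of the paralogs was not tested.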

How the data were processed

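PolyA RNA from 3 libraries was sequenced after a stranded library preparation, per the labels' protocols. STAR, featureCounts and mm10 are named in the submitters' processing notes, without versions or settings. The authors deposited raw read counts of the control and glucose oxidase plus Et2HOBA libraries, with log2-scale normalized values and their log2 difference, per the file headers. For glucose oxidase against control the authors deposited a log2 difference per gene symbol, and for the treated libraries the same for 7 genes.

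The deposited values equal a variance-stabilizing transformation (DESeq2 1.42.0, run per pair), to within 2e-08 for glucose oxidase against control. Inverting it with the control counts gave the glucose oxidase counts. Among 18258 genes with a single matching symbol, 100% came out whole to a tolerance of 0.01. With control counts raised by 1 read, 3.30% did. A further 29 genes, whose names were repeated or turned into dates, were placed by whole reads. The inversion was tested on simulated data. Of the 18287 gene IDs, 17878 are in GENCODE M21, each at the same position.

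Normalized counts are reads over a size factor (median of ratios, 3 libraries together), here 1.03, 0.965 and 1.04. Log2 ratios used a pseudocount of 10 and a limit of 1. Folds of single genes used no pseudocount. Intervals came from scipy 1.17.1. TMM factors (edgeR 4.0.16) served as an alternative. No count model was fitted, since 1 library per group gives no spread. A count of 3 was taken as the floor. Stretches and coding ends were read from GENCODE transcripts and the promoter from RefSeq.

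Both genes and all lists were chosen with earlier results of these data known. Genes of a list were named when past 1 log2 unit in either comparison with control, at most 6 per list by mean normalized count; ligands, phosphatases and defining markers were named regardless. Cdh5, Cd79a, Fcgr3 and Lair1 were named after their values were seen.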

Additional observations from a re-analysis of the deposited data

How the results depend on the processing

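The 6 folds of Lilrb4a and Lilr4b were recomputed under 54 alternatives in all, and none changed direction; 40 stayed within the 95% counting interval. Over 4 other scalings (total count, TMM, size factors over the compared pair, or over genes at a mean of 100 or more) the folds against control ran from 9.31 to 9.71 and 13.1 to 14.5 for Lilrb4a, and from 21.1 to 22.1 and 29.4 to 32.6 for Lilr4b. Between the treated libraries they ran from 1.41 to 1.51 and 1.39 to 1.49. Total-count scaling put the median log2 ratio of all genes at -0.06 and -0.13 against control.

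The deposited scale, which acts like a pseudocount of 202, 71.1 or 1236 normalized counts by comparison, gave smaller folds by its construction: 3.32, 7.32 and 1.20 for Lilrb4a and 5.84, 14.5 and 1.25 for Lilr4b (glucose oxidase and both agents against control, then both agents against glucose oxidase). Summing both genes gave 15.3 and 22.8 against control for either gene, and adding Gm49339, an alternative chosen after seeing the data, gave 15.0 and 22.5.

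The number of genes past 1 log2 unit was 2317, 2688 and 1563 in the 3 comparisons. It was 4243, 4494 and 3311 with a pseudocount of 1, and 526, 695 and 391 at a limit of 2. Over protein-coding genes it was 1235, 2210 and 441, so within 1.5 times the count over all genes with both agents against control, and not in the other comparisons. Those other comparisons use the glucose oxidase library, which had 464 genes at a count of 0, the most of any library. Shares over all genes given beside the lists therefore include many genes that are not protein-coding.

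No paired analysis was possible because each group has 1 library, and leaving out a library would leave a group empty. The control counts of 43 and 51 reads set the width of every interval against control. For Lilrb4a, the count rests on how reads in exons shared with Gm49339 were assigned. Few were counted for Gm49339, and whether the others were dropped or went to Lilrb4a alone was not tested.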
